A study of Mus musculus with 24 samples.

Results

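The 31 genes described here serve glycolysis and the response of cells to low oxygen. They are taken by gene symbol. They hold 16 genes for the path of glucose from its uptake to lactate export, 3 regulators of its flux, 3 genes of oxygen sensing and 9 targets of the hypoxia response. All 31 were on the array, out of 23787 genes with a symbol, and all passed the filter on dim probes together with 16842 genes in all. RNA came from TM3, an established line of mouse Leydig cells. The cells were suspended in binding buffer, put into electroporation cuvettes and then either sham-treated (S) or exposed to a nanosecond pulsed electric field (nsPEF, E) of 80 pulses of 60 ns at 14 kV/cm over 180 s. RNA was taken 0, 4 and 24 h later, with 4 replicates in each of the 6 groups (S0, E0, S4, E4, S24 and E24), and each RNA sample was hybridized to a one-colour Agilent array of its own. Sham cells thus shared the harvest and the suspension with the exposed cells. The paper describes the hours after exposure as standard culture, with a quick harvest at 4 and 24 h. For the 0 h cells it names a prolonged preparation of detachment, centrifugation, filtering and a change of medium. An effect of time therefore cannot be told apart from the move from suspension to culture. The p-values measure the spread between these samples of 1 cell line. In such bulk RNA, fewer cells with a transcript and less of it per cell cannot be told apart. Of 8 Leydig cell markers on the array, Star, Cyp17a1 and Nr5a1 were well above background on all 24 arrays, whereas Cyp11a1, Hsd3b6, Hsd17b3 and Lhcgr were so on 0 arrays and Hsd3b1 on 1.

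Glycolysis splits glucose into pyruvate in the cytosol and yields ATP without oxygen, and lactate dehydrogenase turns the pyruvate into lactate, which leaves the cell. Hypoxia-inducible factor 1, whose alpha subunit is encoded by Hif1a, is marked for destruction by prolyl hydroxylases (Egln1, Egln3) as long as oxygen is present. When oxygen is scarce the factor accumulates and binds short sites near its target genes, among them glucose transporters, glycolytic enzymes, the hydroxylases themselves and genes for vessel growth and mitophagy. Many of these genes also answer to growth factors and serum. The protein of the factor is regulated mainly by its stability, which an array does not read.

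Stretches before an annotated transcription start are shown for the 4 genes that rose most in sham cells at 4 h and, for comparison, for Ldha, whose brightest probe did not pass the test, and Vegfa, which fell. These are RefSeq promoter sequences of the mouse build GRCm38.p6, each the 250 bases up to the start, written 5′ to 3′ on the strand of the gene. Capitals mark the core letters of hypoxia-inducible factor sites, ACGTG or GCGTG, on either strand (CACGT and CACGC where the match is on the other strand), and the matches can overlap. Ldha and Vegfa have more than 1 promoter in RefSeq, and for these the one with the most matches was taken, a choice made after the matches were seen. The Ldha, Ankrd37 and Vegfa stretches shown precede starts inside the annotated span of the gene. For Vegfa, the stretch before the start of the whole gene (chr17:46032378-46032627) holds 0 matches.
Slc2a1, chr4:119108495-119108744, plus strand: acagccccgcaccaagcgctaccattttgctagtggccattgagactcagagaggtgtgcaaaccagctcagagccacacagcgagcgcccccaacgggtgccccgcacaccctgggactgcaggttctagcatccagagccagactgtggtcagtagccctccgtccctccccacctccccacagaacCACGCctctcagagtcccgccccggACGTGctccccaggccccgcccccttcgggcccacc
Hk2, chr6:82774455-82774704, minus strand: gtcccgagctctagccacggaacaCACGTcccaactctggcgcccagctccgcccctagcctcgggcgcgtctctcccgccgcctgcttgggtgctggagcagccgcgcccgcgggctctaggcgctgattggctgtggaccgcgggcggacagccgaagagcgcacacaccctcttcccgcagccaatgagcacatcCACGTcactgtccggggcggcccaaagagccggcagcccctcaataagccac
Egln3, chr12:54203875-54204124, minus strand: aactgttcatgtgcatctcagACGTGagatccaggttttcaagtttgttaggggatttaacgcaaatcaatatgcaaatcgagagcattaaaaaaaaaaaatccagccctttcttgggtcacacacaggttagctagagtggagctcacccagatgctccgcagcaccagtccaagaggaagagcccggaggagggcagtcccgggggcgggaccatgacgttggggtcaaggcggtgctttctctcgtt
Ankrd37, chr8:45999851-46000100, minus strand: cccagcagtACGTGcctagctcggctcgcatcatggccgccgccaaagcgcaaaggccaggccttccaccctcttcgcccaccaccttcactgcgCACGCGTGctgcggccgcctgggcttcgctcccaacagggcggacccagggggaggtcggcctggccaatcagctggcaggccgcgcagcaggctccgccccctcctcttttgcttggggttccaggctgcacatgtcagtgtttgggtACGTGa
Ldha, chr7:46845554-46845803, plus strand: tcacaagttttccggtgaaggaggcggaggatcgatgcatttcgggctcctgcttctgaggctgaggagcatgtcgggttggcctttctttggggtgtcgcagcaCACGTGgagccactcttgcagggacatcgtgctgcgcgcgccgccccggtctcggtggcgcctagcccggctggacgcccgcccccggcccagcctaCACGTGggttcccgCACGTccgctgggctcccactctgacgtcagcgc
Vegfa, chr17:46025164-46025413, minus strand: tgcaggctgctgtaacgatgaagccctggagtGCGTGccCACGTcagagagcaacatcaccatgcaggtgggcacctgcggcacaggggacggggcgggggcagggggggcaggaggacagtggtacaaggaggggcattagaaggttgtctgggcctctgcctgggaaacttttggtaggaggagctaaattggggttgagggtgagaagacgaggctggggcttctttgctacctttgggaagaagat

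Ldha had 5 such matches in 3 stretches, Hk2 and Slc2a1 had 2 stretches each, Vegfa had 2 as well, Ankrd37 had 3 and Egln3 had 1. A promoter was found for 29 of the 31 genes, not for Bnip3l and Ndrg1. At least 1 match stood in a promoter of 27 of the 29 genes (93.1%), against 54.2% of the 13326 tested genes with a promoter and 41.5% of all genes with one. Counted by single promoters, 34 of 42 (81%) held a match, against 38.6% of all 32851 RefSeq promoters. ACGTG alone was held by 65.5% of the 29 genes and by 22.5% of the tested genes, and GCGTG by 65.5% and 43.3%. The promoters of the 29 genes were also rich in G and C, with a median of 62.2% against 57.6% for the tested genes. Genes that rose, such as Slc2a1, and that did not pass by their brightest probe, such as Ldha, were among the 27, and so was Vegfa, by its inner promoter alone. A match is a description of the letters in this window and not a bound site. The list was drawn up from glycolysis genes and hypoxia targets, so its higher share of matches is not an independent result.

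Values are given as the log2 of the processed signal minus the 75th percentile of the same array, so that 0 is the 75th percentile, and a difference of 1 is a doubling relative to it. Each gene is given by its brightest tested probe. On the 24 arrays the 75th percentile of the signal lay between 201.8 and 532.7 units, and 57.5% to 62.1% of the probes were well above background on sham arrays against 51.2% to 57.2% on nsPEF arrays. Of the 31 genes, 29 were well above background on all 24 arrays. Hk1 was missing on 1 nsPEF array at 4 h because its spot was marked there as an outlier, so its E4 values rest on 3 arrays. Adm was well above background on only 5 arrays. Each time had its 8 arrays on 1 slide, which means that an effect of the slide and one of time cannot be told apart. Sham samples lay in the first row of arrays on each slide and nsPEF samples in the second, so treatment and place on the slide cannot be told apart either.

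Time moved most of these genes, as it moved most genes on the array. A time effect was called (limma, adjusted p under 0.05 over all tested probes) for 25 of the 31 genes, against 84.2% of all genes tested. In sham cells 15 genes rose and 5 fell from 0 h to 4 h, where 30.8% of all genes rose and 34.6% fell. The median difference of the 31 genes was 0.16 on the log2 scale against -0.04 over all genes. From 0 h to 24 h in sham cells 14 rose and 3 fell, against 15.7% and 22.8% of all genes, with a median difference of 0.18 against -0.02. Of the 12252 genes well above background on all arrays, 36.6% rose and 38.5% fell in sham cells at 4 h. At 24 h these shares were 18.2% and 27.2%. Between 4 h and 24 h in sham cells 6 rose and 10 fell, against 31.7% and 33.8% of all genes. The members were chosen with these data known in outline, so the counts are a description of this list.

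The transcript of a glucose transporter rose, and those of the hexokinases of the first step went opposite ways. Slc2a1, which encodes the glucose transporter GLUT1, stood at 4.27, 4.37, 3.98 and 4.27 on the S0 arrays, at 5.87, 5.97, 5.89 and 5.78 at 4 h and at 5.07, 5.11, 5.13 and 5.02 at 24 h. The 3 sets of sham arrays did not overlap, with 24 h between the others. The gene was 3.14 times as high at 4 h as at 0 h (1.65 on the log2 scale, SE 0.071, limma, adjusted p = 6.0e-14) and still 1.81 times as high at 24 h (adjusted p = 1.3e-08). Hk2 encodes the inducible hexokinase, which phosphorylates glucose. It was at 2.02, 2.02, 1.74 and 1.97 at 0 h, at 3.68, 3.69, 3.76 and 3.72 at 4 h and at 2.65, 2.67, 2.61 and 2.40 at 24 h in sham cells. Again no sham array at 4 h overlapped the other times. The rise was 3.43-fold at 4 h (1.78, SE 0.079, adjusted p = 1.1e-13) and 1.57-fold at 24 h (adjusted p = 2.4e-06). Hk1, the hexokinase found in most tissues, went the other way and fell by 0.52 at 4 h, with an SE of 0.059 (adjusted p = 2.7e-07), whereas after 24 h it was 0.15 above 0 h, which did not pass the test (adjusted p = 0.0605). A second, much dimmer probe of Hk1 differed by -0.08 at 4 h (adjusted p = 0.81).

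The phosphofructokinases, which commit sugar to glycolysis, split by isoform. Pfkm, the muscle isoform, stood at 3.97, 3.91, 3.99 and 4.09 on the S0 arrays, at 2.53, 2.56, 2.50 and 2.50 on the S4 arrays and at 3.56, 3.60, 3.58 and 3.70 on the S24 arrays. It dropped at 4 h on every sham array and had come back most of the way at 24 h. The 4 h level was 0.361 of that at 0 h (-1.47 on the log2 scale, SE 0.045, adjusted p = 3.0e-16) and the 24 h level was 0.769 of it (-0.38, adjusted p = 1.5e-06). Pfkl, the liver isoform, rose by 0.33 at 4 h and 0.35 at 24 h (adjusted p = 0.00037 and 0.00049). Pfkp, the platelet isoform, rose by 0.26 and 0.35 (adjusted p = 7.0e-06 and 7.2e-07). At the far end of the path Slc16a3, the lactate exporter MCT4, rose 1.87-fold at 4 h (0.90, SE 0.080, adjusted p = 4.9e-09) and 1.55-fold at 24 h.

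**Figure D1:**
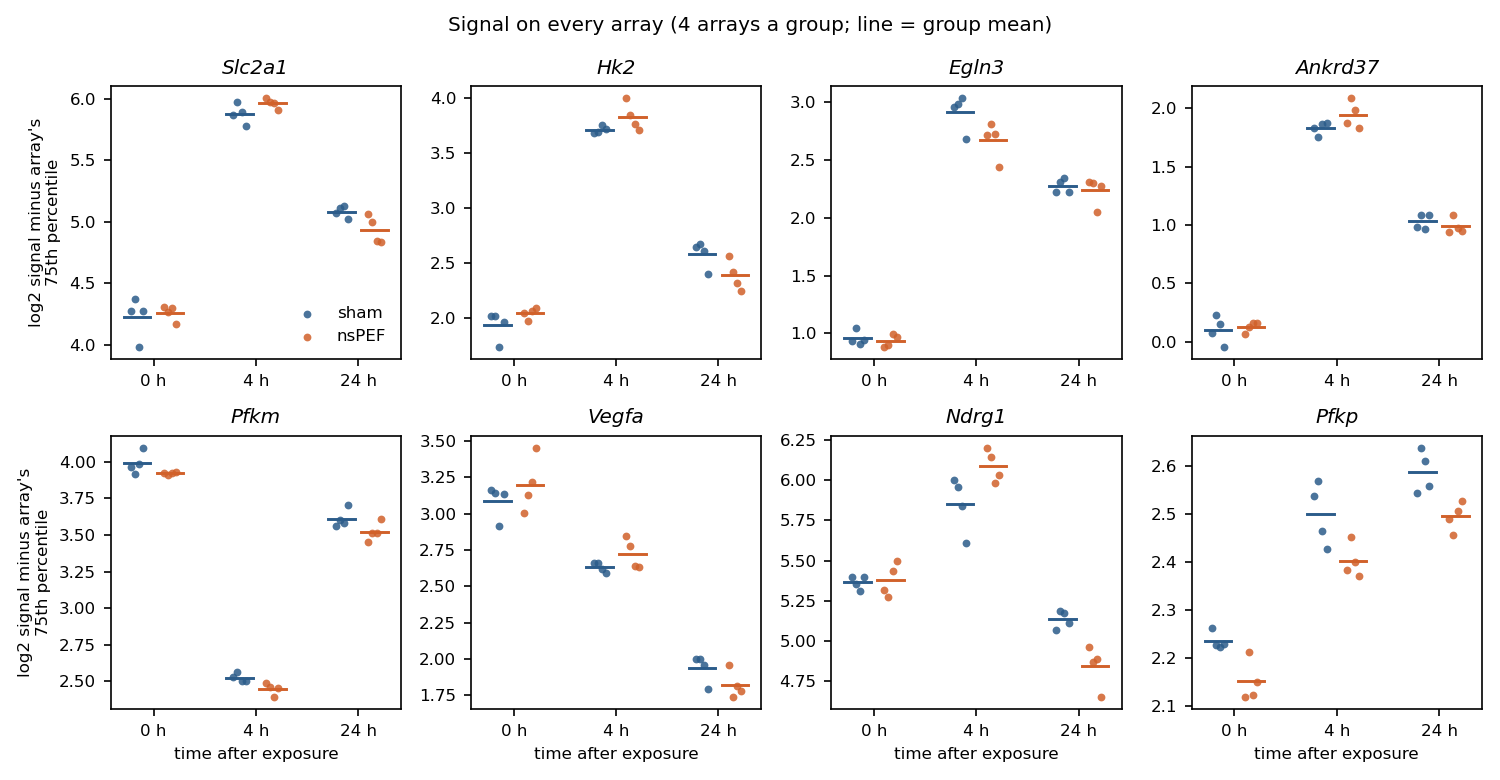
Signal of 8 genes on every array (y axis, log2 signal minus the array's 75th percentile; x axis, time after exposure). Each point is 1 array, sham in blue and nsPEF in orange, and the line is the mean of the 4 arrays. Slc2a1, Hk2, Egln3 and Ankrd37 peak at 4 h, Pfkm is lowest at 4 h, and Vegfa is lowest at 24 h, in both treatments.

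The enzymes in the middle of the path gave a different picture. The brightest probes of Gpi1, Aldoa, Tpi1, Gapdh, Pgk1, Eno1, Pkm and Ldha did not pass the test between any times in sham cells. Their differences at 4 h ran from -0.22 for Gapdh (SE 0.109) to 0.17 for Pkm (SE 0.089). Pgam1, the phosphoglycerate mutase, was the exception among the bright enzymes and rose by 0.32 after 4 h, with an SE of 0.078 (adjusted p = 0.0015), and by 0.21 after 24 h (adjusted p = 0.0385). Its call at 24 h was lost under 13 of 45 other settings. At this spread the 95% intervals were wide for some, for example -0.48 to 0.11 for Ldha at 4 h.

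Dimmer probes of several of these enzymes did pass. A second probe of Ldha, the lactate dehydrogenase subunit, rose by 0.60 at 4 h in sham cells (adjusted p = 2.85e-05), where the brightest probe differed by -0.19. The second probe of Pkm, pyruvate kinase, rose by 0.47 (adjusted p = 0.00024). Both dimmer probes of Tpi1, triosephosphate isomerase, rose by 0.25 and 0.19, the dimmest probe of Gpi1, glucose phosphate isomerase, by 0.24, and the dimmest probe of Eno1, enolase, by 0.26 (adjusted p = 0.00057, 0.015, 0.00071 and 0.043). For Gapdh, none of the 6 probes passed at 4 h in sham cells, with differences of -0.22 to 0.16. Brightness itself moved with time on these arrays. The 634 probes with a level over 7 at S0 had a median difference of -0.21 at 4 h in sham cells, and those between 2 and 4 had 0.02. On replicate 4 of S4, the array with the highest 75th percentile, the same bright probes lay 0.47 below the other S4 arrays, Ldha lay 0.85 and Pgk1 0.70 below. Without that array the brightest Ldha probe differed by 0.03 at 4 h (adjusted p = 0.82), Pgk1 by 0.11 (adjusted p = 0.16) and the median of the bright probes was -0.10. When the values were centred within classes of probe brightness, an alternative chosen after seeing the data, the number of genes that rose by 24 h in sham cells went from 14 to 22. The share of all genes that rose under this centring was not counted, so the 22 only describes this list. At 4 h Gpi1 (0.22), Aldoa (0.17), Tpi1 (0.26), Pgk1 (0.14) and Pkm (0.23) then passed in sham cells, and Gapdh (-0.01), Eno1 (0.06) and Ldha (0.02) did not.

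**Figure D2:**
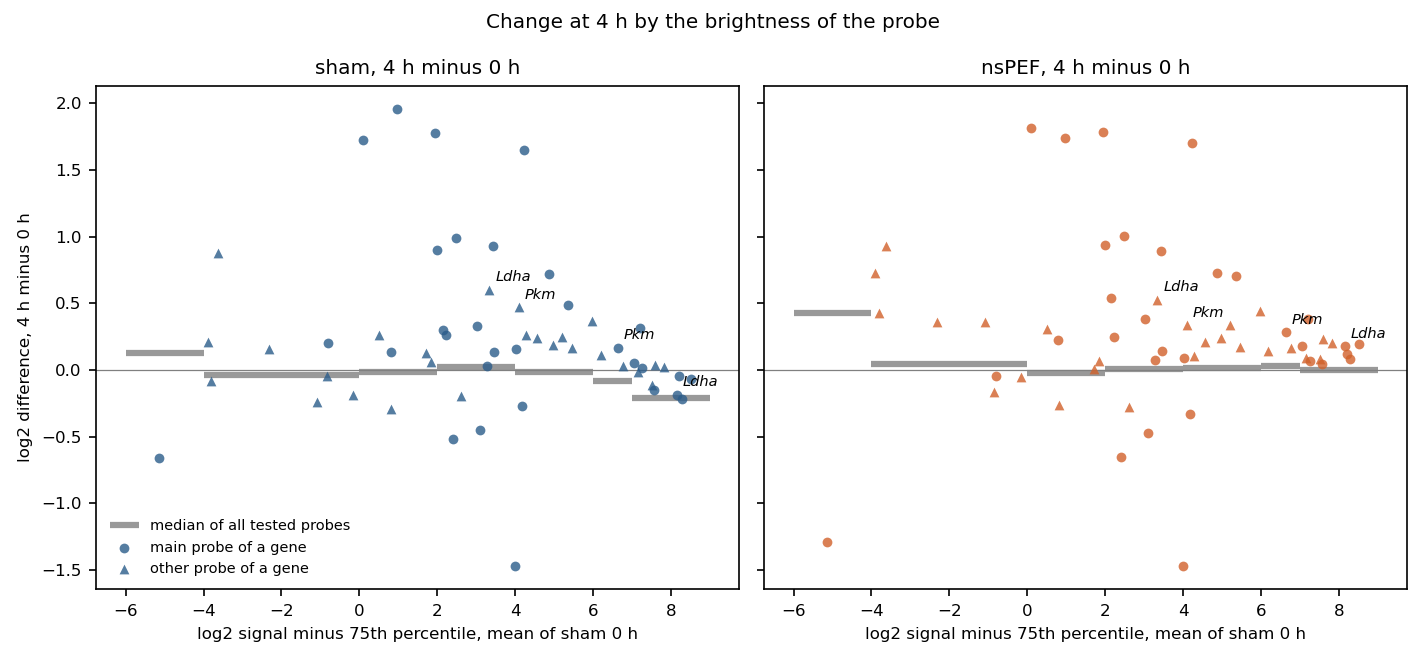
Difference between 4 h and 0 h (y axis, log2) against the mean level of a probe on the S0 arrays (x axis, log2 signal minus the 75th percentile), in sham cells on the left and nsPEF-exposed cells on the right. Circles are the brightest tested probe of each of the 31 genes, triangles are their other tested probes, and grey bars are medians of all tested probes in 7 classes of level. In sham cells the median over the brightest class is -0.21, and the dimmer Ldha probe is at 0.60 while the brightest is at -0.19.

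Of the regulators, Pfkfb3, which makes the fructose bisphosphate that activates phosphofructokinase, rose 1.99-fold at 4 h in sham cells (0.99, SE 0.068, adjusted p = 8.7e-11) and was back at the 0 h level by 24 h (0.01, SE 0.068, adjusted p = 0.94). Its dimmer probe rose by 0.88 (adjusted p = 0.00081). Pfkfb4, a second enzyme of this kind, rose by 0.20 at 4 h (adjusted p = 0.045), a call that was lost under 21 of 45 other settings, a fit with the replicate number as a block among them. Pdk1, a kinase that closes pyruvate dehydrogenase and so keeps pyruvate out of the mitochondria, differed by 0.03 at 4 h (adjusted p = 0.75) and rose by 0.30 at 24 h in sham cells (adjusted p = 0.0030). Of its 3 other probes, 2 also rose at 24 h and 1 was at -0.35 (adjusted p = 0.12).

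The hydroxylases of oxygen sensing rose strongly in sham cells, while Hif1a did not pass there between 0 h and the later times. Egln3 stood at 0.93, 1.04, 0.91 and 0.95 on the S0 arrays, at 2.96, 2.99, 3.04 and 2.68 on the S4 arrays and at 2.22, 2.31, 2.34 and 2.23 on the S24 arrays. No array at 4 h or 24 h overlapped those at 0 h. The gene was 3.89 times as high at 4 h (1.96, SE 0.082, adjusted p = 3.9e-14) and 2.5 times at 24 h (1.32, adjusted p = 2.0e-10), and these were the largest rises among the 31 genes in sham cells. Egln1, the main hydroxylase in most cells, rose 1.91-fold at 4 h (0.93, SE 0.053, adjusted p = 4.3e-12) and 1.32-fold at 24 h (adjusted p = 6.7e-06). Hif1a differed by 0.16 at 4 h (SE 0.10, adjusted p = 0.18) and by -0.05 at 24 h (adjusted p = 0.76). Without replicate 4 of S4 its difference at 4 h was 0.27 and passed the test (adjusted p = 0.013), and its average difference between nsPEF and sham, -0.16, passed as well (adjusted p = 0.045). With all arrays, the time effect of Hif1a averaged over treatment was called (limma, adjusted p = 0.014). In exposed cells Hif1a fell by 0.28 from 4 h to 24 h (limma, adjusted p = 0.023).

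The targets outside glycolysis went both ways. Ankrd37, a small ankyrin repeat protein known as a hypoxia marker, stood at 0.07, 0.23, 0.15 and -0.05 on the S0 arrays, at 1.83, 1.75, 1.86 and 1.87 at 4 h and at 0.98, 1.09, 0.97 and 1.09 at 24 h. Each time point was apart from the others. It rose 3.31-fold at 4 h (1.73, SE 0.062, adjusted p = 3.9e-15) and 1.9-fold at 24 h (adjusted p = 6.1e-10). Bnip3, a receptor of mitophagy, rose by 0.72 at 4 h and 0.59 at 24 h (adjusted p = 5.0e-10 and 6.3e-08), while its relative Bnip3l fell by 0.27 at 4 h (adjusted p = 0.0019) and was at -0.02 at 24 h. A second Bnip3l probe also fell at 4 h, by 0.20, but was higher at 24 h than at 0 h by 0.31 (adjusted p = 0.000225). Ndrg1, a stress gene, rose by 0.49 at 4 h (adjusted p = 2.4e-05) and at 24 h was lower than at 0 h by 0.23 on the log2 scale, with an adjusted p of 0.031. This 24 h call was lost under 13 of 45 other settings and reversed under 1. Car9, a carbonic anhydrase at the cell surface, was late. It differed by 0.13 at 4 h (adjusted p = 0.065) and rose 1.73-fold at 24 h (0.79, SE 0.060, adjusted p = 3.7e-09), with a second probe at 0.60.

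Vegfa, the growth factor for blood vessels and a textbook target of hypoxia-inducible factor, fell. Its brightest probe was at 3.16, 3.14, 2.92 and 3.13 on the S0 arrays, at 2.66, 2.66, 2.62 and 2.59 on the S4 arrays and at 2.00, 2.00, 1.96 and 1.79 on the S24 arrays. Every later array lay below every earlier one. The level was 0.73 of that at 0 h after 4 h (-0.45, SE 0.083, adjusted p = 8.1e-05) and 0.451 after 24 h (-1.15, adjusted p = 1.8e-09). A second probe fell by 0.29 and 1.15, and another differed by 0.13 at 4 h (adjusted p = 0.15) and fell by 0.55 at 24 h (adjusted p = 6.9e-06), so the 4 h fall depends on the probe. The mean of the Vegfa probes at 4 h differed by less than this and did not pass. P4ha1 and P4ha2 encode subunits of the hydroxylase that matures collagen. P4ha2 rose by 0.14 at 4 h and 0.19 at 24 h (adjusted p = 0.0385 and 0.00907), and the call at 4 h was lost under 16 of 45 other settings. The brightest P4ha1 probe rose by 0.30 and 0.50 (adjusted p = 0.042 and 0.0030), whereas its second probe fell by 0.19 and 0.46 (adjusted p = 0.034 and 6.9e-05), so no direction is given for this gene. With the replicate number as a block the brightest P4ha1 probe did not pass at 4 h.

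Adm, the vasodilator adrenomedullin, was near the limit of detection. It was well above background on 1 of the 4 S0 arrays, on 0 of the S4, E0, E4 and E24 arrays, and on all 4 S24 arrays. Its fall of 0.66 at 4 h in sham cells (adjusted p = 0.032) is therefore a difference between values at or near background. The S24 mean of -4.54 was at least 1.4-fold above S4, where the level was set no lower than the lowest signal, on each array, among probes well above background. The measured S4 mean was -5.80, and the adjusted p of 0.00027 belongs to the measured difference of 1.26 and not to this bound. At 24 h the measured means were close, -4.54 in S24 and -4.59 in E24 (limma, adjusted p = 0.93). Set no lower than that lowest signal, E24 averaged -4.12, above the S24 mean. The detection counts at 24 h therefore do not show a lower Adm level after nsPEF.

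At 24 h the direction of small changes also rests on the scaling. With the RNA spike-in probes as the reference in place of the 75th percentile, the median of all tested probes was 0.72 higher at 24 h than at 0 h in sham cells and 0.59 higher in nsPEF-exposed cells, while at 4 h it moved by 0.04 and 0.20. On that scale 30 of the 31 genes were called higher at 24 h in sham cells, and Pfkm (0.34) and Ndrg1 (0.50) were above their 0 h level. The share of all genes called higher on that scale was not counted, so the 30 is not a trait of this list. Changes at 24 h are thus given relative to the other genes of the array. Vegfa stayed below its 0 h level on both scales.

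**Figure D3:**
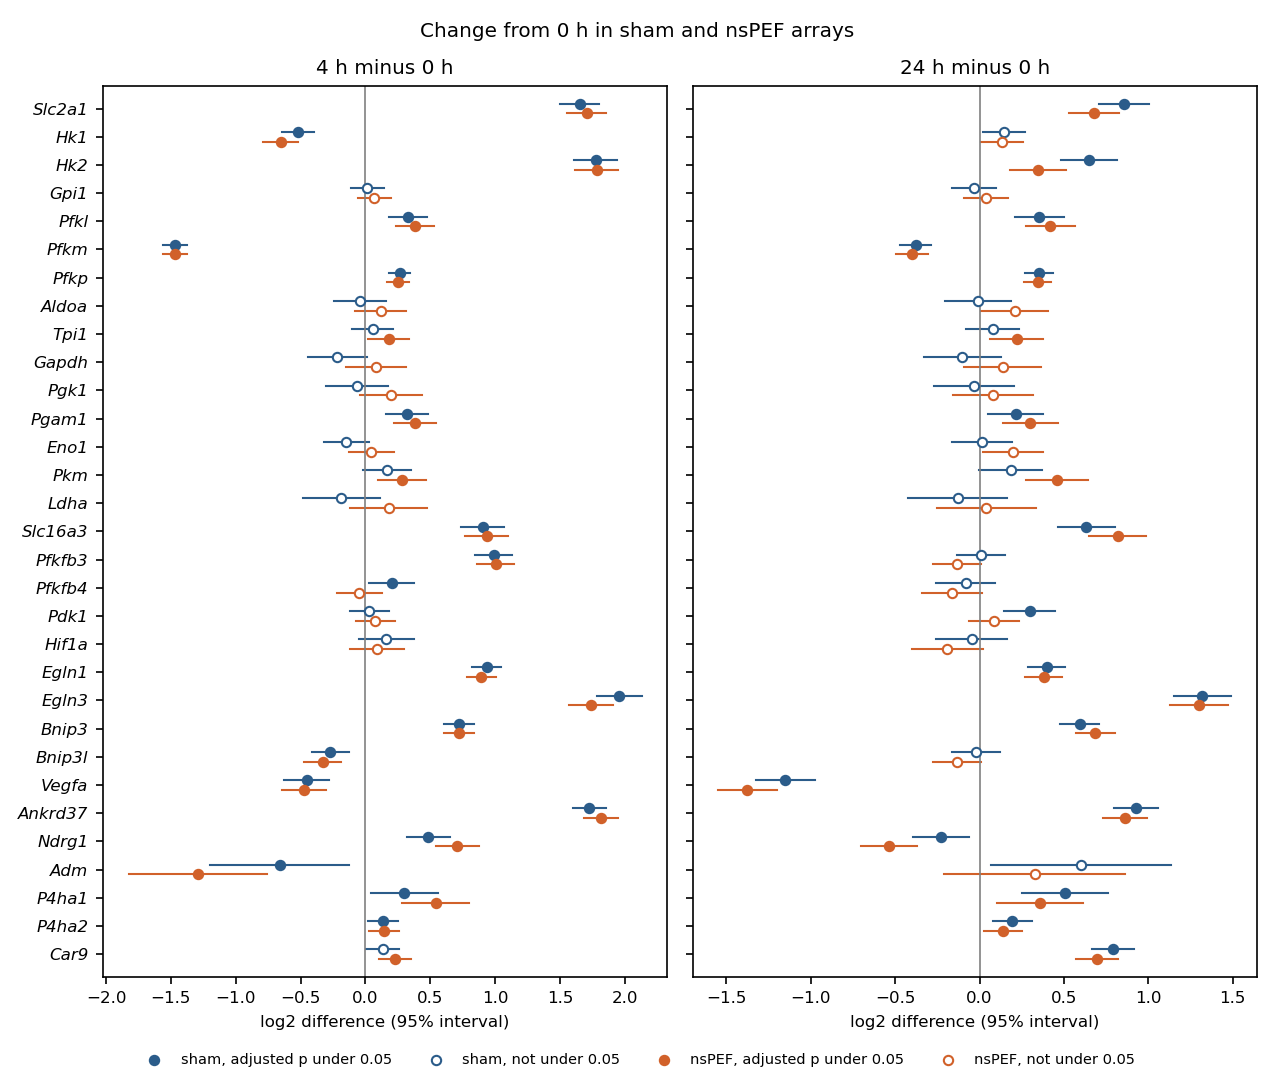
Difference of each of the 31 genes from 0 h at 4 h (left) and 24 h (right) on the log2 scale, sham in blue and nsPEF in orange, with 95% intervals from the fit to 24 arrays. Filled points passed the test. Egln3 (1.96), Hk2 (1.78), Ankrd37 (1.73) and Slc2a1 (1.65) lie farthest to the right at 4 h in sham cells and Pfkm (-1.47) farthest to the left, with the nsPEF points beside them.

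After nsPEF exposure the same genes moved over time. From 0 h to 4 h 17 genes rose and 5 fell, against 34.7% and 33% of all genes, and from 0 h to 24 h 15 rose and 3 fell, against 24.3% and 21.5%. Between 4 h and 24 h 6 rose and 9 fell, with 31.7% of all genes higher and 31.7% lower. The sham and the exposed cells have separate arrays at all times, so these differences share no array. Both treatments of a time lay on 1 slide, however, so an effect of the slide would enter both time courses. They are therefore not independent of each other. At 4 h 19 genes were called in the same direction in both, and at 24 h 16 were. The share of all genes called in both was not counted, so these numbers only describe this list. Slc2a1 was at 4.30, 4.26, 4.30 and 4.17 on the E0 arrays and at 6.00, 5.97, 5.97 and 5.91 on the E4 arrays, a rise of 3.26-fold. Hk2 was at 2.04, 1.97, 2.07 and 2.09, and then at 4.00, 3.84, 3.76 and 3.71, a rise of 3.44-fold. In both genes the exposed arrays overlapped the sham arrays at 0 h and at 4 h. Egln3 rose 3.34-fold from 0.88, 0.90, 0.99 and 0.97 to 2.72, 2.82, 2.72 and 2.44, and Ankrd37 rose 3.52-fold from 0.07, 0.13, 0.15 and 0.16 to 1.87, 2.09, 1.99 and 1.83. Pfkm fell to 0.36 of its E0 level, from 3.92, 3.91, 3.92 and 3.93 to 2.49, 2.46, 2.39 and 2.45. Vegfa went from 3.00, 3.13, 3.21 and 3.45 to 2.85, 2.78, 2.64 and 2.63 at 4 h and to 1.96, 1.74, 1.81 and 1.78 at 24 h, where it was 0.386 of its E0 level. By its brightest probe, Pkm rose by 0.28 at 4 h and 0.46 at 24 h in exposed cells (adjusted p = 0.00916 and 0.000358). Tpi1 rose by 0.18 and 0.22 (adjusted p = 0.0453 and 0.0246). The Tpi1 calls were lost under 23 and 10 of 45 other settings, the one at 4 h also with the replicate number as a block. The brightest probes of both genes did not pass in sham cells, where their dimmer probes rose at 4 h. The interaction had adjusted p of 0.407 for Pkm and 0.629 for Tpi1. Pdk1, which rose at 24 h in sham cells, differed by 0.09 in exposed cells (adjusted p = 0.357). Its interaction was not called (limma, adjusted p = 0.297), nor was its nsPEF minus sham difference of -0.24 at 24 h (limma, adjusted p = 0.056). A dim Vegfa probe rose at 4 h by 0.73 (adjusted p = 0.049), against the direction of the brightest one, and the second Car9 probe differed by -0.16 at 4 h where the brightest rose by 0.23.

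The direct comparison of nsPEF with sham at each time found few differences among these genes. At 0 h 0 of the 31 genes were called (0.0356% of all genes were higher and 0.0653% lower), with 1 at an unadjusted p under 0.05, as were 1427 of all 16842 genes. At 4 h 0 were called (1.69% and 2.35% of all genes), with 8 at an unadjusted p under 0.05 beside 3872 of all genes. At 24 h 1 was called, which was lower (2.76% and 2.98% of all genes), with 8 at that unadjusted level beside 4189 of all genes. Averaged over the times 1 was called, which was lower (4.01% and 6.04% of all genes), with 9 at that level beside 4740. The interaction of treatment and time was called for 0 genes (0.428% of all genes), with 3 at that level beside 3000. Without replicate 4 of S4, Egln3 (-0.32, adjusted p = 0.033) and Hk1 (-0.23, adjusted p = 0.041) were called lower in nsPEF at 4 h, and Hk1 (-0.11, adjusted p = 0.030) and Bnip3l (-0.14, adjusted p = 0.023) on average, beside Hif1a. The numbers by other settings stand in the closing section.

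Ndrg1 was the gene called at 24 h. It was at 5.07, 5.19, 5.18 and 5.11 on the S24 arrays and at 4.96, 4.87, 4.89 and 4.66 on the E24 arrays, so the groups did not overlap. The exposed level was 0.817 of the sham level (-0.29, SE 0.080, adjusted p = 0.041). At 4 h the same gene was at 6.00, 5.95, 5.84 and 5.61 in sham cells and at 6.20, 6.14, 5.98 and 6.03 in exposed cells, higher by 0.24 in the mean, with overlapping arrays (adjusted p = 0.099). At 0 h it was at 5.40, 5.35, 5.31 and 5.40 and at 5.31, 5.27, 5.43 and 5.50 (difference 0.02). The interaction for Ndrg1 had an adjusted p of 0.0695. The call at 24 h was lost under 17 of 45 other settings. Over all 45 the differences ran from -0.58 to -0.23 and the adjusted p from 0.0016 to 0.27.

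Pfkp was the gene called on average over the times. On the S0 arrays it was at 2.26, 2.23, 2.22 and 2.23 and on the E0 arrays at 2.12, 2.21, 2.12 and 2.15. At 4 h it was at 2.54, 2.57, 2.46 and 2.43 in sham cells and at 2.38, 2.45, 2.40 and 2.37 in exposed cells, and at 24 h at 2.54, 2.64, 2.61 and 2.56 and at 2.49, 2.46, 2.51 and 2.53. The groups did not overlap at 0 h and 24 h and overlapped at 4 h. The average difference was small, -0.091 on the log2 scale (SE 0.023, adjusted p = 0.019), or 0.939 of the sham level. A second Pfkp probe differed by -0.001 (adjusted p = 0.99), so the difference depends on the probe.

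For the other genes the intervals show what size of effect these arrays leave possible. Without Adm, the 95% intervals of the nsPEF minus sham differences of the 30 genes lay between -0.31 and 0.28 at 0 h, between -0.41 and 0.64 at 4 h and between -0.46 and 0.45 at 24 h. The upper bound at 4 h belonged to Ldha, at a fold of 1.56. Groups of arrays did not overlap for 1 gene at 0 h, 4 at 4 h and 6 at 24 h, where 7.78%, 15.5% and 15.7% of all genes were apart in this way. At 4 h the bright enzymes lay above sham by 0.04 (Pgam1) to 0.35 (Ldha), and the 634 brightest probes of the array had a median of 0.18 there. Without replicate 4 of S4 the Ldha difference was 0.13 and the median of these probes was 0.07. After centring within classes of brightness the same 9 enzymes lay between -0.16 (Pgam1) and 0.14 (Ldha) at 4 h, and Gpi1, Aldoa, Tpi1, Pgam1, Eno1 and Pkm were below sham. None of the 9 passed the test on either scale.

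**Figure D4:**
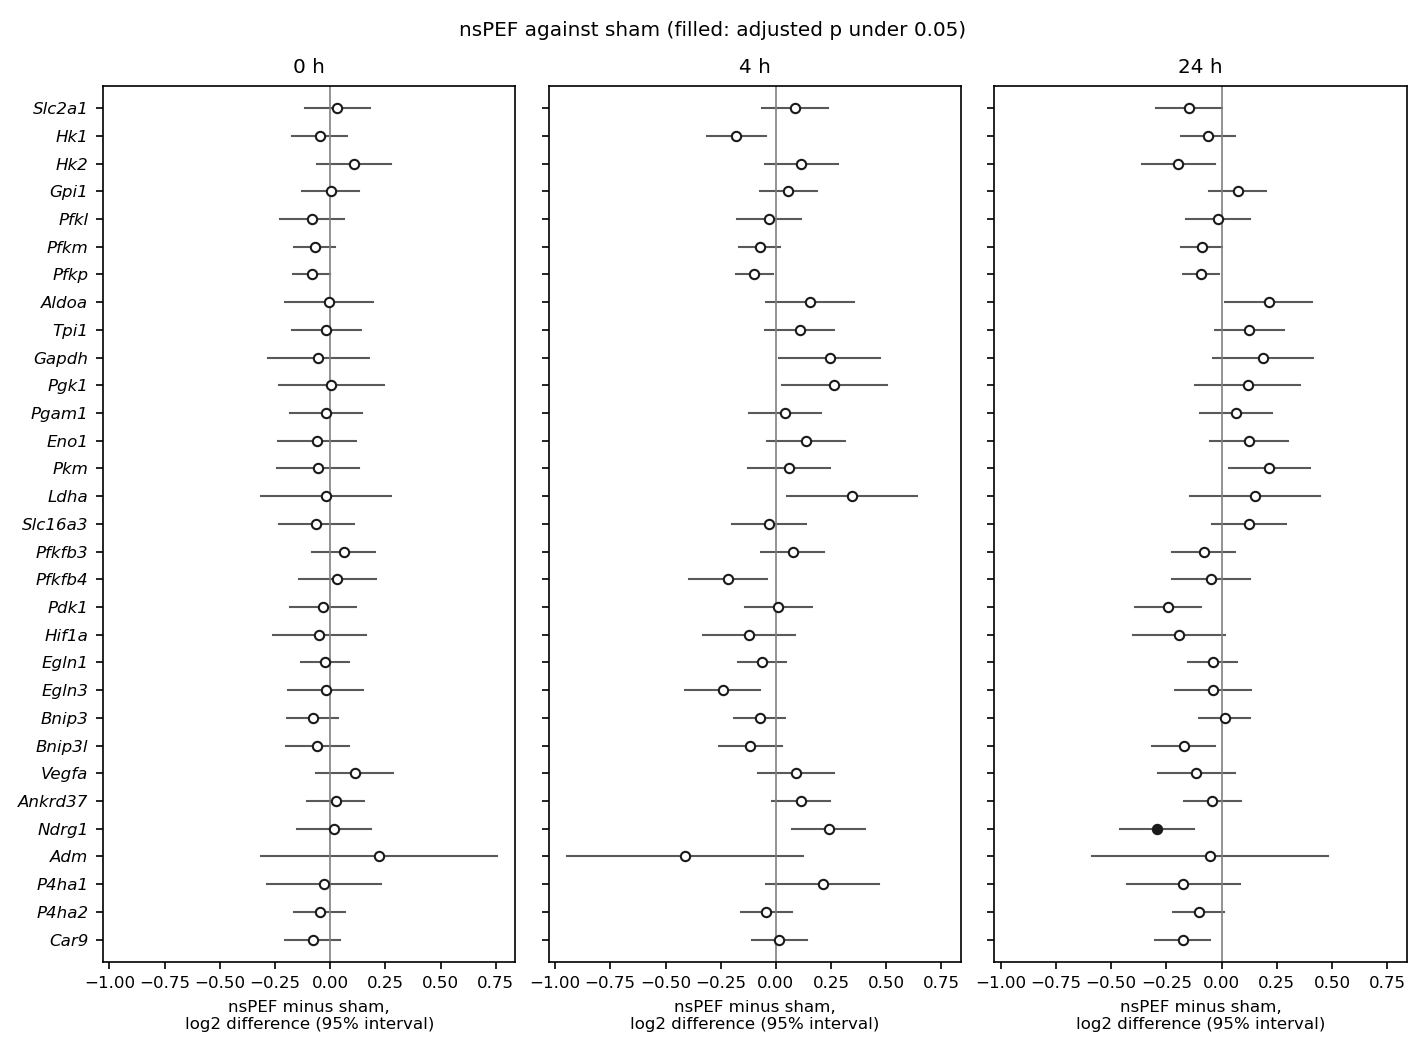
Difference between nsPEF and sham for each of the 31 genes at 0, 4 and 24 h (x axis, log2, with 95% intervals from the fit to 24 arrays). The filled point, Ndrg1 at 24 h (-0.29), is the only gene that passed the test at a single time.

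Other genes of glycolysis and its surroundings (isozymes, transporters, pyruvate dehydrogenase control and glycogen) went both ways at 4 h. Of 42 such genes 34 were tested, and 9 rose and 16 fell from 0 h to 4 h in sham cells, with a median difference of -0.08, where 30.8% of all genes rose, 34.6% fell and the median was -0.04. The 10 isozymes had a median of 0.15 and the 5 regulators and side steps one of 0.52. The 7 tested genes of pyruvate dehydrogenase control held 5 that fell and 0 that rose. Among them Pdk2, a kinase of that enzyme, fell by 2.86 on the log2 scale (SE 0.136), and Pdp1, the phosphatase that opposes it, fell by 2.01 (SE 0.067). Of 39 other genes of the hypoxia response 38 were tested, and 15 rose and 11 fell, with a median of 0.08, against the same shares of all genes. Ak4, a mitochondrial adenylate kinase, rose by 2.30 (SE 0.105) and Tfrc, the transferrin receptor, by 2.13 (SE 0.068). Ccng2, an unusual cyclin of resting cells, fell by 2.21 (SE 0.095). These 5 genes had an adjusted p under 0.05 and went the same way after nsPEF exposure, with differences of 2.26, 2.06, -2.47, -1.97 and -2.28 for Ak4, Tfrc, Pdk2, Pdp1 and Ccng2.

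Averaged over the times, nsPEF differed from sham for 1 of the 34 other glycolysis genes and for 6 of the 38 other hypoxia genes, where 4.01% of all genes were higher and 6.04% lower. Pdp1 was lower by 0.21 on the log2 scale in exposed cells, as were Narf by 0.22, Ccng2 by 0.22, Insig2 by 0.16 and Mxi1 by 0.11. Angptl4, which inhibits lipoprotein lipase, was higher by 0.22 and Hmox1, heme oxygenase, by 0.13. Their adjusted p lay between 0.0024 (Narf) and 0.030 (Hmox1). Some of these genes changed far more over time in sham cells, with a rise from 0 h to 4 h of 2.08 for Angptl4 and 1.58 for Hmox1, while Insig2 differed by -0.02 (adjusted p = 0.735).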

How the data were processed

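RNA of sham-treated and nsPEF-exposed TM3 cells, taken at 3 times, was measured on 24 one-colour Agilent arrays. The authors read the arrays with Feature Extraction 12.0 (submitters' processing notes), and the deposited scanner text gives a processed signal intensity per spot, background-subtracted but not scaled between arrays. The deposited log2 table, which the authors made with a shift to the 75th percentile and a median baseline, was used as an alternative. No column was left unmatched.

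Here log2 processed signals of the 59305 probe spots were averaged per probe (56605 probes) without spots marked as outliers, and the 75th percentile of the array was subtracted. A probe was tested where it was well above background on at least 2 of 4 arrays of any group (37684 probes). With limma 3.58.1 in R 4.3.3, the means of the 6 groups were fitted to all 24 arrays, and p-values were adjusted by Benjamini-Hochberg over all tested probes (threshold 0.05). Each gene stands by its tested probe with the highest mean, named through RefSeq accessions. A plain analysis of variance with treatment, time and their interaction, the test of the study's methods, was run as an alternative. Per-array values are given for genes that changed at least 2-fold with time in sham cells, or differed between nsPEF and sham, and every other gene is given by differences. Of the other glycolysis and hypoxia genes, the 3 called genes with the largest rise and the 3 with the largest fall at 4 h in sham cells are named, with each called on average between treatments, except 1 gene that is not reported here. The 31 genes, the other lists and the tests were chosen with earlier results of these data known. The number of arrays limits the precision. The procedure was tested on simulated data. Matplotlib 3.10.9 drew the figures. The study describes tests of a replicate as run on a shared cell suspension, but whether replicate numbers of the arrays mark one is not given in the sources used here. Of 12 same-numbered pairs of sham and nsPEF arrays 7 had deviations correlated over 0.1 (range -0.16 to 0.29), so pairing is neither established nor denied, and the fit with the block is an alternative.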

Additional observations from a re-analysis of the deposited data

Results flagged for a closer look

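Within 185 sets of 4 arrays (31 genes in 6 groups, without the Hk1 set at 4 h of nsPEF, which has 3 arrays), the highest or lowest array stood apart from the other 3 in 13 (7.03%), where chance gives about 1 in 20. The measure is the gap to the nearest array over the range of the 4. Replicate 4 of S4 held 6 of the 13, all of them low and all in bright enzymes, with values of 0.877 for Aldoa, 0.939 for Tpi1, 0.939 for Gapdh, 0.85 for Pgk1, 0.848 for Pgam1 and 0.898 for Ldha. That array gave Ldha at 7.33 where the other S4 arrays gave 8.14 to 8.23, and Gapdh at 7.71 where they gave 8.17 to 8.20.

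Replicate 4 of S24 held 3, with Gpi1 high (0.871), P4ha1 high (0.898) and Hif1a low (0.847, at 3.76 against 4.02 to 4.06). Replicate 3 of S0 held 3, with Pgam1 low (0.898), Vegfa low (0.892) and Pfkfb4 high (0.846). Replicate 3 of E24 was low for Egln3 (0.856, at 2.05 against 2.28 to 2.32).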

How the results depend on the processing

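Of 79 differences of named genes, 44 kept their direction and their call under all 45 other settings, and 35 lost or reversed it under at least 1. The causes were not tested. In the replicate block fit 76 of the 79 kept their call. Pfkfb4 (0.20), P4ha1 (0.30) and Tpi1 (0.18, nsPEF) at 4 h lost theirs, 13 genes rose in sham cells at 4 h, and Ndrg1 at 24 h had an adjusted p of 0.0478.

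For the counts under other settings, here and below, the share of all genes was not counted, so they only describe this list. In the order of genes called for treatment, genes called for interaction, and genes lower in nsPEF at 24 h (1, 0 and 1 as reported), the counts were as follows. Treatment calls numbered 8 with spike-in scaling, 7 with array quality weights, 6 with values centred by array row, 3 with outlier-marked spots kept and with the authors' table, 2 without a filter and by plain analysis of variance, and 0 with the 75th percentile of detected probes, the dimmest probe and brightness centring. Interaction calls numbered 3 with spike-in scaling, 2 with quality weights and 1 with quantile normalization, the detected-probe percentile and brightness centring. Genes lower at 24 h numbered 6 with quality weights, with 2 higher. They numbered 3 with outlier-marked spots, array row centring and the authors' table, 2 with quantile normalization, the detected-probe percentile, no filter, plain analysis of variance and the dimmest probe, and 0 with spike-in scaling, normexp and a fit of only the 2 groups. At 4 h 13 were higher with spike-in scaling, 1 with the detected-probe percentile and 1 with row centring, and lower were 2 with normexp and 1 each with quantile normalization, row centring and quality weights.

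Over time, genes higher at 24 h in sham cells numbered 23 with quantile normalization, 22 with brightness centring and 30 with spike-in scaling, where 1 was lower, 3 were lower at 4 h, and in nsPEF at 24 h 28 were higher and 1 lower. The mean of a gene's probes gave 3 lower at 4 h in either treatment. Row centring over all probes, chosen after seeing the data like the dimmest probe and brightness centring, left the median of all tested probes in nsPEF against sham at -0.17, -0.37 and -0.22 at 0, 4 and 24 h. It gave 26 treatment calls, 6, 23 and 19 genes lower in nsPEF, 10 higher in nsPEF at 4 h against 0 h, and 9 higher and 6 lower at 24 h. Leaving out replicates gave 0 to 4 treatment calls (4 without replicate 4 of S4, where Pfkfb4, P4ha1 and Adm also lost their call at 4 h), 0 to 1 for interaction, 0 to 2 lower in nsPEF at 4 h (2 without that array), and 0 to 1 higher and 0 to 3 lower at 24 h.

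Reversed with spike-in scaling were Pfkm (0.34 in sham, 0.13 in nsPEF) and Ndrg1 (0.50, sham) at 24 h and Pfkp for treatment (0.012). Row centring over all probes reversed P4ha2 in nsPEF (-0.042 at 4 h, -0.044 at 24 h), and the mean of probes Vegfa in nsPEF at 4 h (0.00073). The dimmest probe reversed P4ha1 (-0.19 and -0.46 in sham, -0.049 and -0.22 in nsPEF) and Car9 in nsPEF at 4 h (-0.16). Dim signals limit Adm, and the number of arrays limits the small differences between treatments.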
